A study of Mus musculus with 224 samples.

Results

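Mitochondrial fatty acid oxidation was followed through 10 genes, from the carnitine shuttle that brings fatty acids into the mitochondrion to the flavoprotein reductase that passes on their electrons. The genes were Cpt1a, Cpt1c and Cpt2 of the carnitine shuttle, Acadvl, Acadl and Acadm among the acyl-CoA dehydrogenases, Hadha and Hadhb of the trifunctional protein, Decr1, the auxiliary reductase for unsaturated fatty acids, and Etfdh. They were taken as all probesets, the groups of short probes that together measure a transcript, whose platform annotation gives 1 of these symbols. That yielded 18 probesets of 45037 on the arrays, for 10 of 18193 genes with a probeset of their own. The set was built around Decr1 because its values in the prefrontal cortex in Comparison 3 were known, so Decr1 in the prefrontal cortex is given as a description without a test.

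The arrays came from male C57BL/6J mice, bought at 10 weeks of age, exposed to air or to cycles of chronic intermittent ethanol (CIE) by vapor, with limited access to ethanol drinking or without it. CIE mice spent 16 h a day for 4 days in vapor chambers in each of 4 cycles, after injection with ethanol at 1.6 g/kg and, at 1 mmol/kg, with pyrazole, an inhibitor of alcohol dehydrogenase, and Air mice were given pyrazole alone. The Drinking groups had 6 weeks of baseline access and were then offered 15% (v/v) ethanol in sessions of 2 h following 72 h of abstinence after each cycle, and the NonDrinking groups were not. Arrays measured RNA of the PFC (prefrontal cortex), the CeA (central amygdala), the BNST (bed nucleus, stria terminalis), the NAC (nucleus accumbens) and the HPC (hippocampus), 1 array for each region of a mouse. All 4 groups thus received pyrazole, and the CIE NonDrinking mice had been without ethanol for longer at sacrifice than the Drinking mice, so that drinking and the time since the last ethanol cannot be told apart. CIE Drinking mice gave 12 arrays in each region other than the NAC, with 11. Air Drinking mice gave 11 in the PFC and HPC and 12 elsewhere, and CIE NonDrinking mice 12 in the PFC and NAC and 11 elsewhere. Air NonDrinking mice gave 12 in the PFC and NAC, 10 in the BNST and 8 in the HPC and CeA.

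In mitochondria, fatty acids are shortened by repeated rounds of beta-oxidation, in which a dehydrogenase, a hydratase, another dehydrogenase and a thiolase act in turn. Double bonds of unsaturated fatty acids cannot pass through this cycle and are first moved or reduced by auxiliary enzymes, among them the reductase encoded by Decr1. In the brain the pathway is found mainly in astrocytes, and neurons rely mostly on glucose, so bulk tissue values mix cell types, and fewer cells of a type and less RNA per cell cannot be told apart.

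Values are log2 expression, and each region was normalized on its own, so that levels are compared between groups of a region and not between regions. Array medians lay between 6.07 and 6.14 in the PFC and between 6.82 and 7.07 in the other regions, and the lowest median correlation of an array with the others of its region was 0.978, in the CeA. Markers of each dissected tissue were high in it: the median percentile among probesets was 82.1 for cortical excitatory markers in the PFC, 96.2 for striatal projection neuron markers in the NAC, 86.3 for hippocampal markers in the HPC, and 91.6 and 82.0 for central amygdala and BNST markers in the BNST and CeA, the last list also standing at 87.6 in the NAC. The widest range of a marker list was in the CeA, where the mean of 9 choroid plexus markers ranged from 7.18 to 12.6 over the CeA arrays against 4.50 to 5.43 in the PFC. In the PFC the widest range was that of 8 striatal projection neuron markers, from 7.14 to 9.46. The same markers ranged from 7.83 to 10.8 in the BNST, and cortical excitatory markers from 7.30 to 9.60 in the NAC.

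All 10 genes were measured above the middle of the array. By the probeset with the highest mean of each gene, Air NonDrinking levels lay between the 58.9th percentile, for Cpt2 in the NAC, and the 95.9th, for Hadhb in the BNST. Of the 18 probesets, 13 in the PFC and 14 in each other region reached the median of all probesets, and these covered all 10 genes. The dim ones were further probesets of Acadl, Cpt1a, Cpt2 and Etfdh.

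The study compared the groups in 6 pairs: Comparison 1 set CIE Drinking against Air Drinking, Comparison 2 CIE NonDrinking against Air NonDrinking, Comparison 3 CIE Drinking against CIE NonDrinking, Comparison 4 CIE Drinking against Air NonDrinking, Comparison 5 CIE NonDrinking against Air Drinking and Comparison 6 Air Drinking against Air NonDrinking. Differences are first minus second group, and a probeset was called at a LIMMA adjusted p of 0.01 or less over all probesets of the region. Comparisons 1, 3 and 4 share the CIE Drinking arrays, and Comparisons 1, 5 and 6 the Air Drinking arrays, so that their values are not independent of each other.

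Decr1, which encodes mitochondrial 2,4-dienoyl-CoA reductase, was lower in CIE Drinking mice than in any other group of the PFC. Its brighter probeset, 1419367_at, had a lowest, median and highest value of 7.997, 8.21 and 9.00 in the 12 CIE Drinking arrays. The same values were 8.70, 8.90 and 9.17 with Air Drinking, 8.63, 8.88 and 8.99 with CIE NonDrinking and 8.67, 8.93 and 9.19 with Air NonDrinking. The CIE Drinking arrays fell into 7 low ones, below every array of the other groups, and 5 within the range of those groups, so that the ranges overlapped. The mean difference was -0.48 ± 0.09 (SE) in Comparison 1, -0.43 ± 0.09 in Comparison 3 and -0.51 ± 0.09 in Comparison 4. Without ethanol drinking, vapor left Decr1 at 8.85 ± 0.13 (SD, n = 12) against 8.93 ± 0.15 (SD, n = 12) with air, and drinking without vapor left it at 8.90 ± 0.13 (SD, n = 11). The second probeset, 1449443_at, which is dimmer, gave -0.23 ± 0.09, -0.37 ± 0.09 and -0.21 ± 0.09 for these comparisons. In 5 arrays of CIE Drinking mice it was below every array of the other groups. Some cell type markers differed in the same comparisons, and their part in these values was not tested. Gfap, 1 of 10 astrocyte markers, was higher by 0.89 in Comparison 1 and 0.70 in Comparison 3, and Gjc3, 1 of 9 oligodendrocyte markers, by 0.51 in Comparison 3. Cux2 and Rorb, 2 of 9 cortical excitatory markers, differed by -0.67 and -0.50 in Comparison 1. Neurod1, 1 of 10 hippocampal markers, differed by -0.74 in Comparison 1, at a list median of 0.03. Zfhx3, 1 of 10 central amygdala and BNST markers, differed by 0.25 in Comparison 3, at a list median of 0.09. Most markers of these lists were not called: the median difference in Comparisons 1 and 3 was 0.05 and 0.0036 for the astrocyte, 0.27 and 0.25 for the oligodendrocyte and -0.02 and 0.04 for the cortical excitatory list. Of the striatal projection neuron markers 0 of 8 were called in Comparisons 1, 3 and 4, with medians of 0.48, 0.10 and -0.28. With the array mean of the striatal projection neuron markers as a covariate, 1419367_at gave -0.57, -0.44 and -0.47 in Comparisons 1, 3 and 4.

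**Figure D1:**
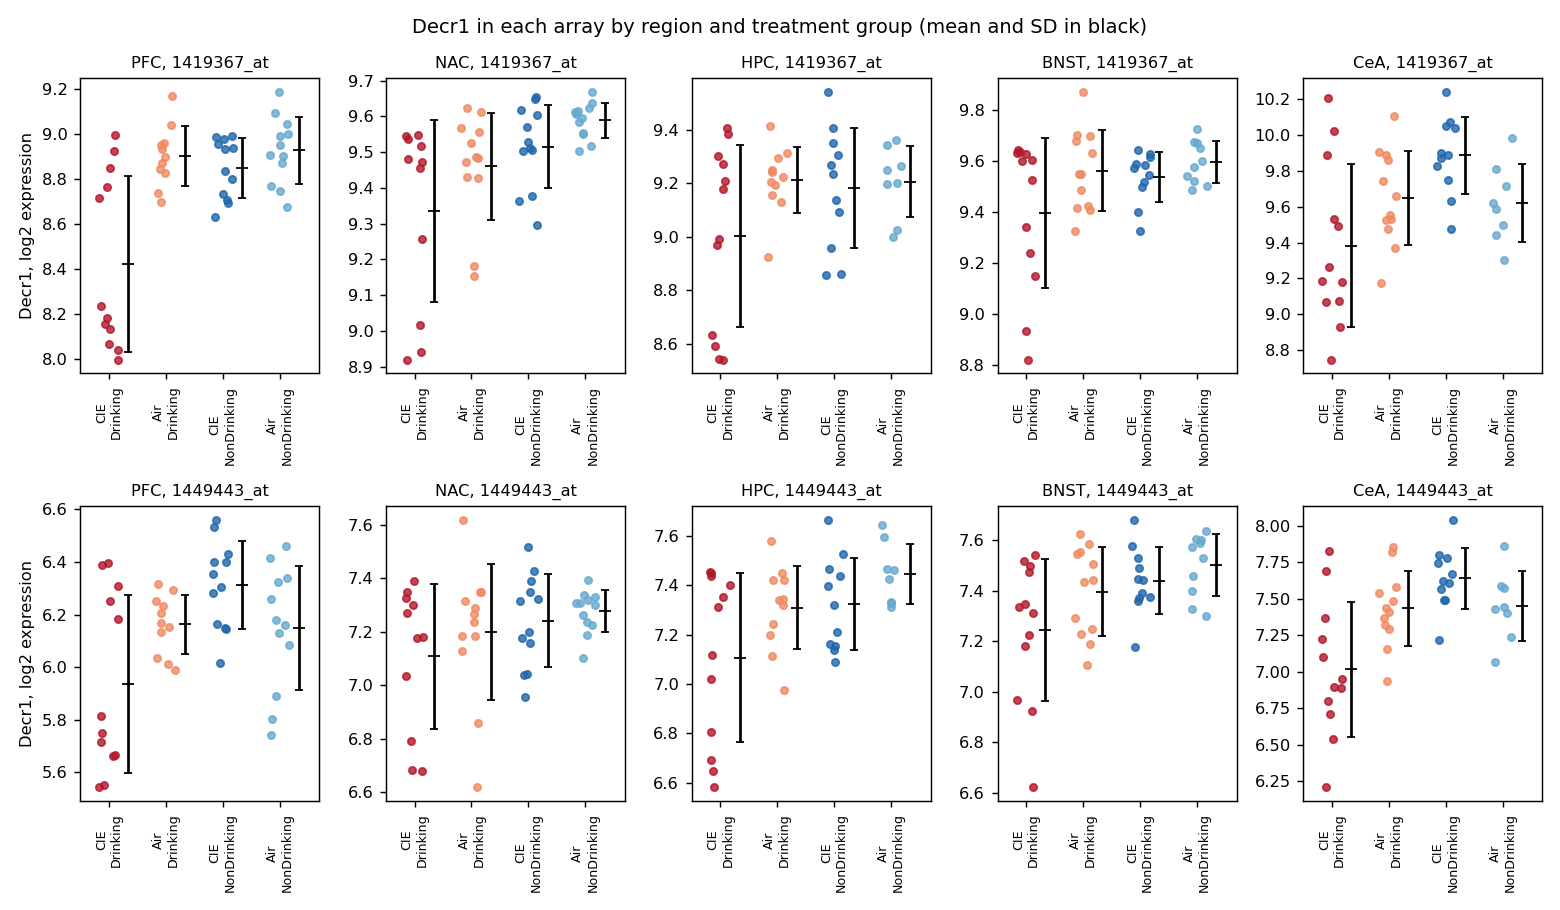
Decr1 log2 expression in every array, for both probesets (rows) in the 5 regions (columns) and the 4 treatment groups, with the mean and SD of each group in black and a y axis of its own in each panel. In the PFC, 7 of 12 CIE Drinking arrays lay between 7.997 and 8.24 for 1419367_at, apart from the other 5 and from the remaining groups.

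Lower Decr1 in CIE Drinking mice was seen beyond the PFC. Both probesets had a lower mean in CIE Drinking arrays in Comparisons 1, 3 and 4 in the NAC, HPC, BNST and CeA as well, although a single difference was called there. In the CeA, 1449443_at had a lowest, median and highest value of 6.21, 6.92 and 7.82 in the 12 CIE Drinking arrays and of 7.22, 7.62 and 8.04 in the 11 CIE NonDrinking arrays. The groups overlapped, and the difference in Comparison 3 was -0.62 ± 0.13 (SE), with a LIMMA adjusted p of 0.00238. The call was lost, at an adjusted p of 0.012, with only these 2 groups in the fit. The brighter probeset gave -0.50 ± 0.13 in the same comparison, with an adjusted p of 0.0145. Choroid plexus markers differed in the same direction in CeA Comparison 3, of which 0 of 9 were called and whose median difference was -0.85, so the fit was repeated with the array mean of these markers as a covariate. The differences were then -0.56 for 1449443_at, with an adjusted p of 0.00324, and -0.42 for 1419367_at, with an adjusted p of 0.0168.

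In the NAC, the brighter probeset was 9.34 ± 0.26 (SD, n = 11) in CIE Drinking and 9.59 ± 0.05 (SD, n = 12) in Air NonDrinking arrays. Comparison 4 gave -0.25 ± 0.07 (SE) there with a LIMMA adjusted p of 0.011, just outside the threshold, and 0.00894 once dim probesets were left out. The HPC showed -0.20 ± 0.10 in Comparison 4 (adjusted p = 0.238), and -0.34 ± 0.10 for 1449443_at (adjusted p = 0.0299). In the BNST the same values were -0.20 ± 0.08 (adjusted p = 0.182) and -0.26 ± 0.08 (adjusted p = 0.069). The sign was the same for both probesets, and since the regions share their CIE Drinking mice, they are no independent repeats. Striatal projection neuron markers in the BNST had median differences of -0.87, -0.75 and -0.48 in Comparisons 1, 3 and 4, with 0 of 8 called. Kl, 1 of 9 choroid plexus markers, was called in the BNST at -0.62 in Comparison 1, at a list median of -0.01. Gjc3, 1 of 9 oligodendrocyte markers, was called there at 0.76 in Comparison 4, at a list median of 0.02. Cortical excitatory markers in the NAC had -0.45, -0.36 and -0.24, with 0 of 9 called. Their part in the Decr1 values of these regions was not tested. No test of the PFC response of Decr1 against that of another region is given, because its PFC values chose the set. Of the 16 probesets of the other 9 genes, 1 was called in such a test of Comparisons 1, 3 and 4, a probeset of Hadhb against the HPC in Comparison 4 (LIMMA adjusted p = 0.00609). Against the NAC, HPC, BNST and CeA, the response of the PFC was called to differ in 0.781%, 2.17%, 2.33% and 4.27% of all probesets in Comparison 1, in 0.107%, 0.0524%, 0.321% and 1.85% in Comparison 3 and in 0.182%, 3.28%, 0.595% and 2.24% in Comparison 4.

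The CIE Drinking group held 13 mouse numbers over the 5 regions, and mouse numbers 1, 2, 3 and 4 were among the lowest Decr1 values in each region. For 1419367_at in the HPC their values were 8.59, 8.54, 8.63 and 8.54, below the lowest array of the other groups at 8.86. In the BNST they were 8.82, 9.15, 9.24 and 8.93, again below the lowest of the other groups at 9.32. Mouse 2 had no NAC array, and mice 1, 3 and 4 stood there at 9.02, 8.92 and 8.94, below all others. These 4 numbers were also among the 7 low PFC arrays, at 8.07, 8.04, 8.24 and 7.997.

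The PFC had 3 further low arrays, those of mouse numbers 5, 6 and 20, at 8.16, 8.18 and 8.13. Their Decr1 was not low in the NAC, where they stood at 9.55, 9.46 and 9.47, or in the HPC, at 9.30, 9.21 and 9.41, beside a median of the other groups of 9.55 and 9.23. In the CeA the lowest arrays were those of mice 1, 3, 2 and 10, while mice 4 and 6, both at 9.18, lay just above the lowest array of the other groups at 9.17, and mouse 5 reached 10.2, the second highest of 43 arrays. The dimmer probeset placed the same 4 mice lowest in the HPC and CeA, but in the NAC 0 arrays and in the BNST the 3 arrays of mice 1, 2 and 4 lay below all other groups. Mouse numbers come from the labels, and what else these mice shared was not tested.

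**Figure D2:**
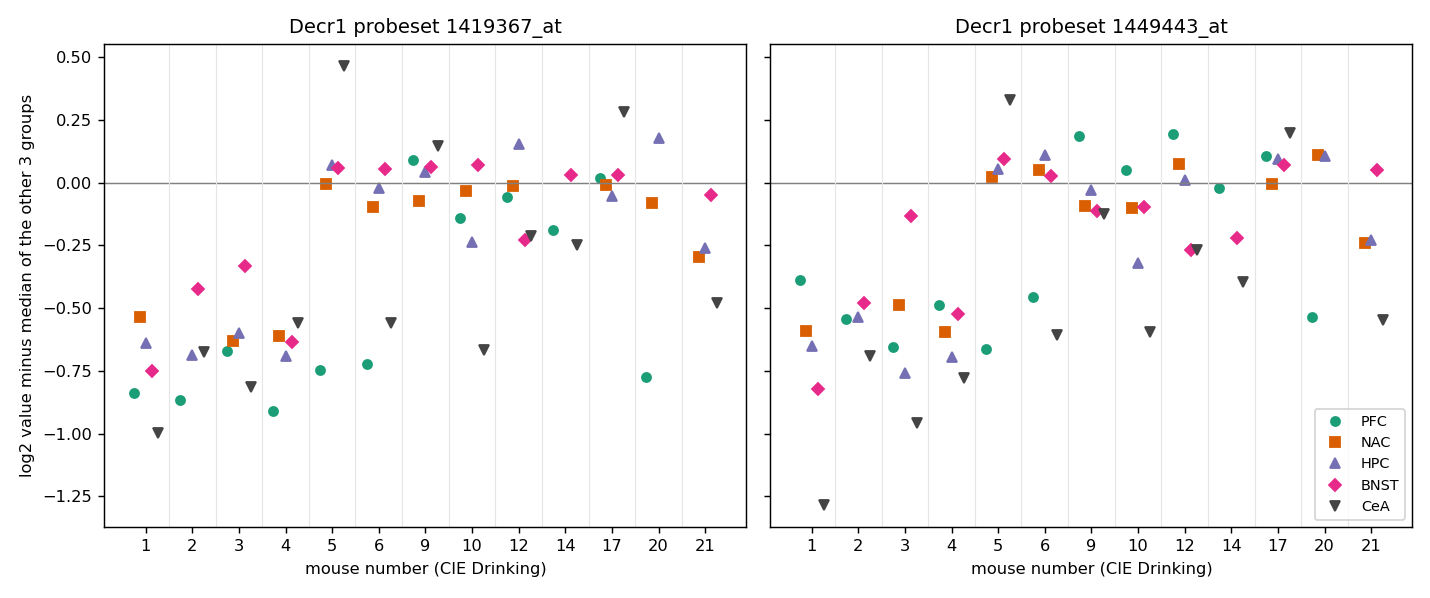
Decr1 log2 value of each CIE Drinking array minus the median of the other 3 groups of its region, by mouse number (x axis) and region (symbols), for the 2 probesets. Mice 1 to 4 lie below 0 in every region that was measured, and mice 5, 6 and 20 are low in the PFC but near 0 in the NAC and HPC.

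As a description, since the arrays were picked by their Decr1 values, leaving out mice 1 to 4 changed Comparison 4 for 1419367_at from -0.20 to 0.0093 in the HPC. In the CeA it changed Comparison 3 for 1449443_at from -0.62 to -0.40. Leaving out the 7 low PFC arrays changed Comparison 3 for 1419367_at there from -0.43 to 0.0015. Leaving out any 1 PFC array kept Comparison 3 between -0.48 and -0.39.

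The spread of Decr1 among CIE Drinking arrays was set against that of all other probesets, as a description. Its PFC values chose the set, so nothing is read from its PFC ranks and shares. The other regions share their CIE Drinking mice with the PFC and are no independent repeats. The SD of 1419367_at in CIE Drinking arrays was 0.39 in the PFC against a pooled 0.14 in the other groups, a ratio of 2.81 that ranked 2 of 45037 probesets. The ratio was 2.25 in the NAC (rank 32 of 45027), 2.01 in the HPC (rank 164 of 44463), 2.45 in the BNST (rank 5 of 44429) and 1.93 in the CeA (rank 149 of 43969). The median over all probesets was between 0.77 and 1.05. The dimmer probeset ranked 65, 2206, 116, 132 and 132 in the same regions. Among the other 9 genes the ratio of the brightest probeset ran from 0.55 to 1.57. None of their 16 probesets had a CIE Drinking array below all other groups in the PFC, and in the other regions none of them had more than 2 such arrays. Among all PFC probesets, 0.113% had at least as many such arrays as 1419367_at. Outside the PFC that share was larger: HPC 3.23%, NAC 3.02%, CeA 1.86% and BNST 1.10%. For 1449443_at, which had none among its NAC arrays, it was PFC 0.488%, CeA 0.200%, HPC 3.23% and BNST 3.28%.

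**Figure D3:**
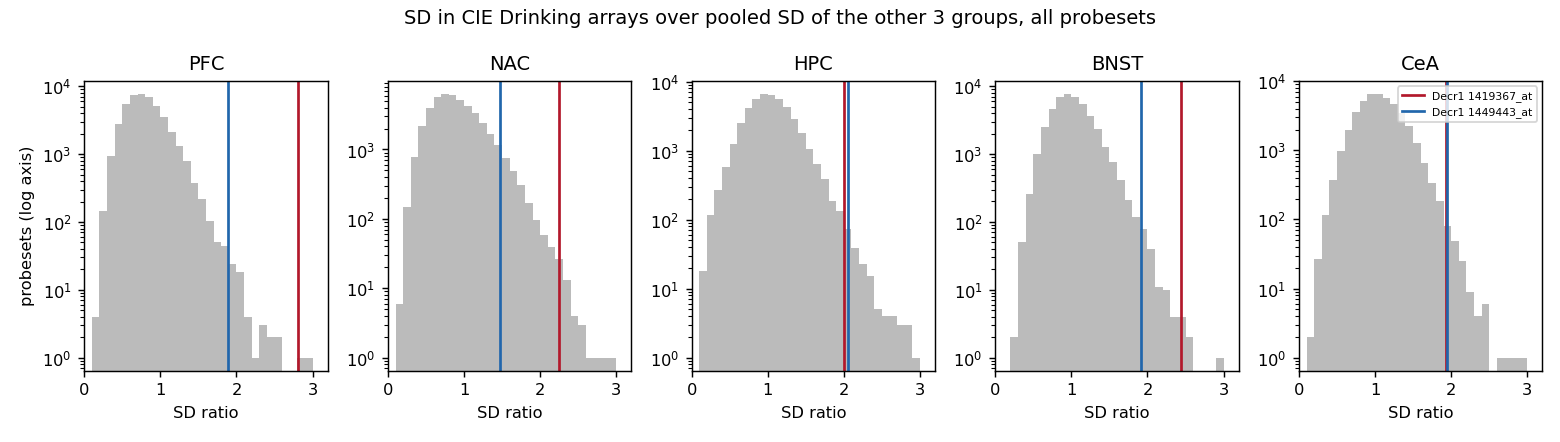
Number of probesets (log axis) by the ratio of the SD in CIE Drinking arrays to the pooled SD of the other 3 groups, for each region, with the 2 Decr1 probesets as lines. The line of 1419367_at stands near the end of the distribution in the BNST and in the PFC, where its values chose the set. In the NAC, HPC and CeA it stands within the upper tail.

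Genes whose group means ran most like those of Decr1 were found over the 20 means of region and group, each region centred. For 1419367_at these were Obsl1 (Pearson r = 0.898), Ciart (0.881), Sec16a (0.878), Prkag1 (0.875) and Sf3a2 (0.871). For 1449443_at they were Mcl1 (0.918), Rad1 (0.889), Ero1a (0.886), Mfsd14b (0.885) and Il1a (0.868). The lists of the 2 probesets shared no gene, and the 20 points share mice and regions.

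Hadha and Hadhb encode the alpha and beta subunits of the trifunctional protein, which carries out the last steps of the cycle on long chains. In the PFC both had their lowest mean in Air Drinking mice. Hadhb, by 1426522_at, had a lowest, median and highest value of 10.39, 10.45 and 10.58 in the 11 Air Drinking arrays. The corresponding values were 10.48, 10.60 and 10.67 with CIE Drinking, 10.44, 10.60 and 10.65 with CIE NonDrinking and 10.48, 10.58 and 10.68 with Air NonDrinking. The groups overlapped, but each of the 11 Air Drinking arrays was below the mean of Air NonDrinking. LIMMA called Hadhb in Comparison 1 (0.13 ± 0.03 SE, adjusted p = 0.00248), Comparison 5 (0.12 ± 0.03, adjusted p = 0.00472) and Comparison 6 (-0.13 ± 0.03, adjusted p = 0.0041). All of these calls rest on the same 11 Air Drinking arrays and are no independent repeats.

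Hadha, by its single probeset, stood at 7.66, 7.81 and 7.996 in Air Drinking arrays and at 7.86, 7.97 and 8.23 in Air NonDrinking arrays. It was called in Comparison 6 (-0.18 ± 0.04 SE, adjusted p = 0.00617) and not in Comparison 5 (0.15 ± 0.04, adjusted p = 0.0252) or Comparison 1 (0.10 ± 0.04, adjusted p = 0.116). With drinking as a main effect Hadha gave -0.11 ± 0.03 at an adjusted p of 0.015. The fit with only the groups compared kept the Hadhb call of Comparison 1 and lost the others, at adjusted p between 0.0229 and 0.0383. The other probesets of Hadhb did not show the same pattern: 1437172_x_at gave 0.14 ± 0.07 in Comparison 6 (adjusted p = 0.211) and 1442732_at gave -0.04 ± 0.04 (adjusted p = 0.501), and the mean over all 3 gave -0.01. Normalizing the arrays again left Comparison 6 called for both genes and lost the Hadhb calls of Comparisons 1 and 5, at adjusted p of 0.0109 and 0.017. The call of Hadhb in Comparison 1 was also lost without CIE Drinking mice 1 to 4, at 0.13 (adjusted p = 0.0187). In Comparison 6, Cux2, Rorb and Neurod1 were higher by 0.74, 0.59 and 0.70 with Air Drinking, and Nts differed by -0.46. Striatal projection neuron markers had a median difference of -0.63 with 0 of 8 called. With their array mean as a covariate Comparison 6 was -0.11 for Hadhb (adjusted p = 0.0209) and -0.16 for Hadha (adjusted p = 0.0301).

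**Figure D4:**
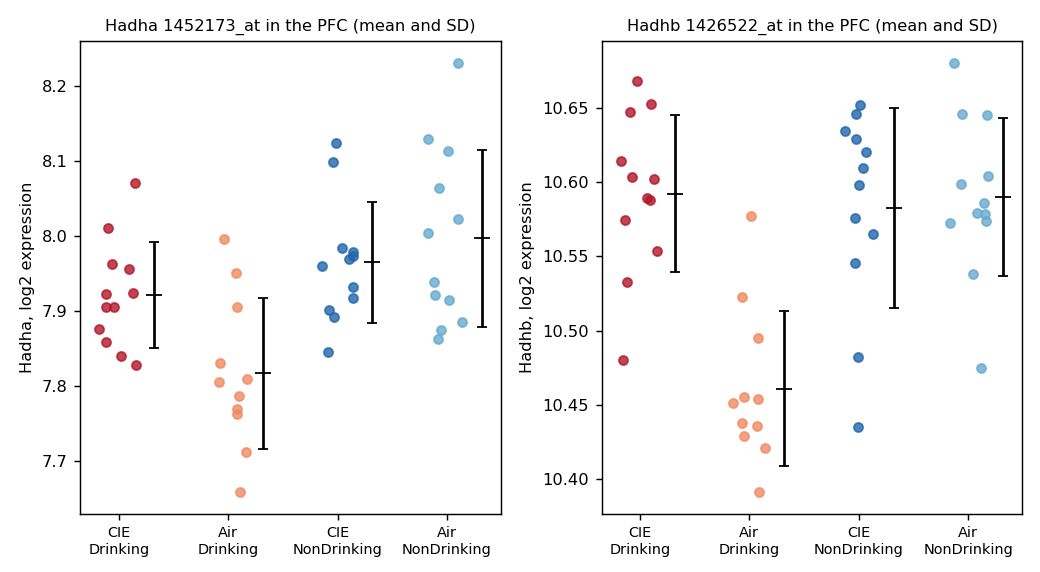
Hadha and Hadhb log2 expression in each PFC array of the 4 treatment groups, with mean and SD in black. Air Drinking arrays lie lowest in both panels, at a mean of 7.82 for Hadha and 10.46 for Hadhb, and overlap with the other groups.

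The genes are neighbours. Hadha lies on the minus strand of chromosome 5 at chr5:30119423-30154980 and Hadhb on the plus strand at chr5:30155253-30184593 (GRCm38.p6), head to head, with 272 bases between them. The RefSeq promoter windows of both genes, which run from upstream of each start to just past it, share 228 bases. The window of Hadhb is shown because it holds most of the sequence between the 2 genes whose values were both low in Air Drinking mice. It lies at chr5:30155003-30155302 on the plus strand, and matches to GGGCGG or its reverse complement, the GC box, are in capitals.
Hadhb: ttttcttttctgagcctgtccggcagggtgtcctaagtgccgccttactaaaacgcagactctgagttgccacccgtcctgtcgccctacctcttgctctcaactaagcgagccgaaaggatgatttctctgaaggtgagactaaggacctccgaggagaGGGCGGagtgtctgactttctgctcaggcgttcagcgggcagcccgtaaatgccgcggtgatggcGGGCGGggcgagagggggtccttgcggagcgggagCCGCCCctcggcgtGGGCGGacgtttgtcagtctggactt

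The GC box was found 4 times in the window of Hadhb and once in that of Hadha, and 35.7% of the 32851 promoters of the same length hold it. Also searched on both strands were CCAAT, held by 37.4% of promoters, the nuclear receptor motif AGGTCA, held by 16.3%, and the E-box CACGTG, held by 7.15%, and neither window has them. Promoter windows were matched for 9 of the 10 genes, of which 7 hold the GC box, 4 the nuclear receptor motif, 3 the CCAAT box and 0 the E-box. The 7 count the shared match for both Hadha and Hadhb. These are matches of letters and not sites.

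Apart from Decr1, Hadha and Hadhb, no gene was called in the PFC. Counting all 18 probesets, the calls in Comparisons 1 to 6 were 2, 0, 2, 1, 1 and 2. Over all probesets of the PFC the share called was 1.87%, 1.26%, 1.87%, 0.722%, 1.69% and 1.4% in the same order. Decr1, whose PFC values chose the set, makes up all of the counts of Comparisons 3 and 4 and 1 of the 2 calls of Comparison 1, and nothing is read from it. Without it the calls were 1, 0, 0, 0, 1 and 2 of 16 probesets, all of Hadhb or Hadha. At an unadjusted LIMMA p under 0.05, 8, 3, 3, 5, 5 and 6 of the 18 probesets passed, Decr1 being among the 18. The share of all probesets at that threshold is not given, so nothing is read from these counts. For vapor, drinking and their interaction 1, 0 and 0 of the 18 were called, and 0 without Decr1, beside 0.915%, 1.35% and 2.92% of all probesets.

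The acyl-CoA dehydrogenases open each round of the cycle, Acadvl on very long, Acadl on long and Acadm on medium chains. In the PFC none was called. A dim probeset of Acadl, 1448988_at, gave -0.15 in Comparison 6 (adjusted p = 0.0481). Of the brightest probesets Acadm had the lowest adjusted p, 0.0973, in Comparison 1, at 10.55 ± 0.06 (SD, n = 12) with CIE Drinking and 10.47 ± 0.07 (SD, n = 11) with Air Drinking. Acadl and Acadvl, at adjusted p of 0.583 and 0.90 in that comparison, differed by less than the SD between arrays.

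Cpt1a and Cpt1c load fatty acids onto carnitine at the outer membrane, Cpt1c being the brain form with little enzyme activity, and Cpt2 unloads them inside. Cpt1a was, like Hadhb, lowest in Air Drinking mice of the PFC, at 7.96, 8.09 and 8.35 against 8.15, 8.24 and 8.39 with CIE Drinking. The difference of 0.15 ± 0.04 (SE) in Comparison 1 passed an adjusted p of 0.05 and not 0.01, at 0.0232, and that of -0.14 ± 0.04 in Comparison 6 had an adjusted p of 0.0361. In the BNST Cpt1a gave 0.19 ± 0.06 in Comparison 1 (adjusted p = 0.0387). The striatal projection neuron markers had a median difference of -0.87 there, with 0 of 8 called, and their part was not tested. Cpt2 followed in the PFC with 0.14 ± 0.06 in Comparison 1 (adjusted p = 0.147), and Cpt1c with 0.05 ± 0.03 (adjusted p = 0.402).

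Etfdh, the reductase that passes electrons from the dehydrogenases to ubiquinone, stood in the PFC at 9.23, 9.35 and 9.71 in Air Drinking and at 9.33, 9.53 and 9.82 in Air NonDrinking arrays. Its difference in Comparison 6 was -0.19 ± 0.05 (SE), with an adjusted p of 0.0157. In that comparison all 10 genes had a lower mean in Air Drinking arrays, with a median difference of -0.07 beside -0.02 over all 18193 genes, and 2 of the 10 were called. In Comparison 1, 9 of 10 were higher in CIE Drinking arrays, with a median of 0.07 beside 0.00, and Decr1 was the exception. Both comparisons hold the same Air Drinking arrays, so that the signs in 1 are not independent of those in the other.

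**Figure D5:**
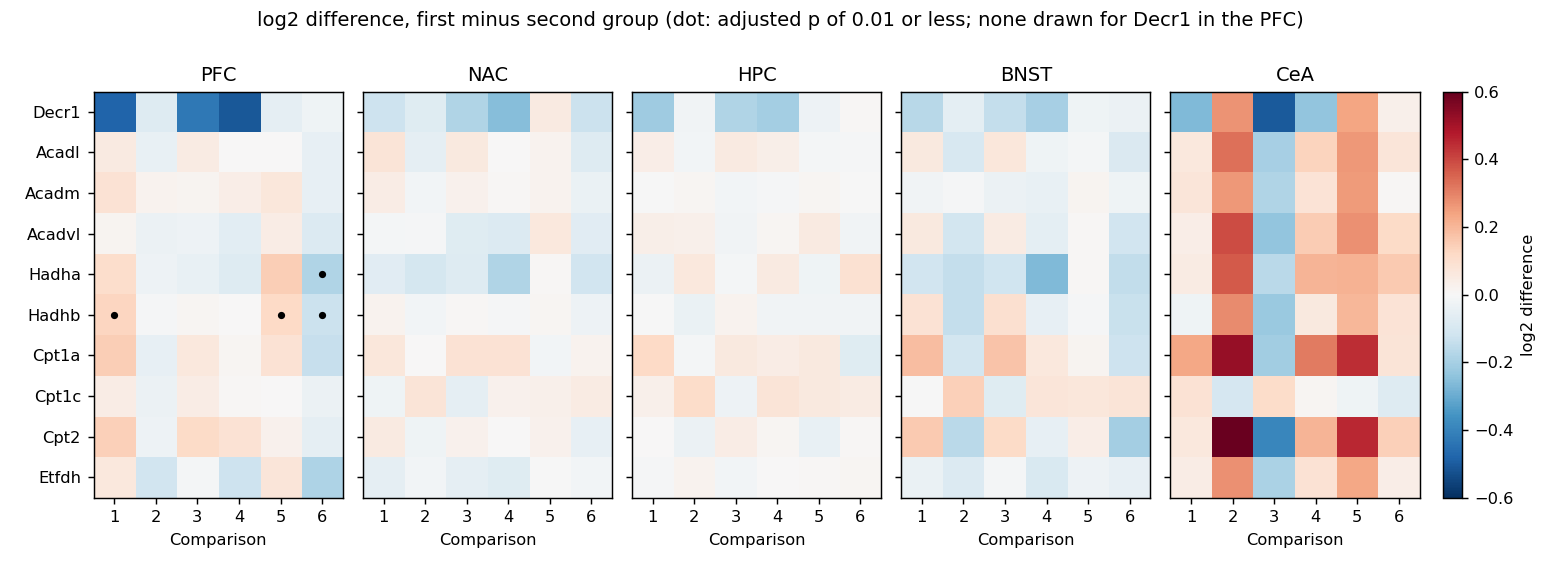
log2 difference, first minus second group, of the brightest probeset of each gene (rows) in the 6 comparisons (columns) of each region, with a dot where the LIMMA adjusted p was 0.01 or less, and none drawn for Decr1 in the PFC, whose values chose the set. Decr1 stands apart from the other genes in PFC Comparisons 1, 3 and 4, and in the CeA most genes other than Cpt1c share the signs of Comparisons 2, 3 and 5 without being called.

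Outside the PFC a single probeset of the 18 was called, that of Decr1 in CeA Comparison 3. None was called in Comparisons 1 to 6 of the NAC, beside 0.282%, 0%, 0.02%, 2.71%, 0.00222% and 0% of all probesets, and 2, 0, 5, 6, 0 and 1 had an unadjusted LIMMA p under 0.05. The HPC had none, beside 1.23%, 0%, 0.0832%, 3.63%, 0% and 0%, with 2, 5, 1, 4, 1 and 2 at an unadjusted p under 0.05. The BNST had none, beside 0.943%, 0%, 0.401%, 1.22%, 0% and 0%, with 3, 4, 3, 4, 0 and 5. The CeA had 0, 0, 1, 0, 0 and 0, beside 0.177%, 0%, 1.64%, 1.86%, 0% and 0%, with 2, 2, 4, 1, 1 and 0 at an unadjusted p under 0.05. The shares of all probesets above are for calls. None is given for an unadjusted p under 0.05, so nothing is read from those counts. No main effect or interaction was called for the 18 probesets in these 4 regions. Of all probesets 0.777%, 1.2%, 0.0698% and 0% were called for vapor and 0.0444%, 0.0292%, 0.00225% and 1.14% for drinking in the NAC, HPC, BNST and CeA, and 0% for the interaction in each.

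The CeA differed from the other regions in how widely the genes varied within a group. The SD of the 9 genes other than Decr1 was 0.11 to 0.92 there, against 0.04 to 0.28 over the other regions. Cpt2 ranged from 7.76 to 10.1 in CIE Drinking arrays, and Cpt1a from 8.54 to 10.7. In Comparison 2 of the CeA, 8 of these 9 genes had a higher mean with CIE NonDrinking, the largest being Cpt2 at 0.59 ± 0.33 (SE, adjusted p = 0.55) and Cpt1a at 0.52 ± 0.32 (adjusted p = 0.557), and none was called. The median difference of the 9 was 0.33 in Comparison 2, -0.20 in Comparison 3 and 0.26 in Comparison 5. Over all genes it was -0.01, -0.03 and -0.003. With the array mean of the choroid plexus markers as a covariate the medians of the 9 were 0.16, -0.01 and -0.01, and again none was called.

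Other genes of the pathway were read from 6 lists. Of 18 other mitochondrial beta-oxidation enzymes and carriers, 0 were called in any comparison of the PFC, with a median difference of 0.01 in Comparison 1. Eci1, an isomerase which like Decr1 handles double bonds, was called in the PFC for the interaction of vapor and drinking, at 0.26 ± 0.07 (SE, adjusted p = 0.00856). Acsl5, Nrip1 and Prkaa2, of lists given below, were called for it too, at -0.30, -0.33 and -0.35 (LIMMA adjusted p = 0.00074, 0.0017 and 0.00252). Over all 18193 genes, 230 were called higher and 323 lower for this interaction. Echs1, the short-chain hydratase, gave -0.22 ± 0.05 in NAC Comparison 4 (adjusted p = 0.00457), where Cx3cr1, 1 of 10 microglia markers, was higher by 0.23 at a list median of 0.02. Acad9, a dehydrogenase that also serves complex I assembly, gave 0.21 ± 0.04 in CeA Comparison 4 (adjusted p = 0.00238). Without CIE Drinking mice 1 to 4, which leaves fewer arrays, the difference was -0.23 for Echs1 and 0.17 for Acad9. Both calls were then lost, at LIMMA adjusted p of 0.0119 and 0.0501.

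Among 12 acyl-CoA synthetases and fatty acid binding genes, Acsl5, which activates long-chain fatty acids, was lower in the PFC of CIE Drinking mice. It gave -0.20 ± 0.04 in Comparison 1 (LIMMA adjusted p = 0.00193) and -0.17 ± 0.04 in Comparison 3 (adjusted p = 0.00527). Without mice 1 to 4 these were -0.19 and -0.16. With fewer arrays both calls were then lost, at LIMMA adjusted p of 0.0187 and 0.0238. Of 17 regulators, Acacb, which makes the inhibitor of Cpt1, rose by 0.26 ± 0.06 in PFC Comparison 1 (LIMMA adjusted p = 0.0081). Without mice 1 to 4 Acacb rose by 0.31, at a LIMMA adjusted p of 0.0114 from fewer arrays. Its probeset was dim, with means of 5.00 in CIE Drinking and 4.73 in Air Drinking arrays, below the median of every PFC array. Prkaa2, a catalytic subunit of AMP-activated kinase, was at 9.88 in Air NonDrinking arrays, 10.12 in CIE NonDrinking and 10.10 in Air Drinking arrays, and was called in Comparison 2 (adjusted p = 0.00526) and Comparison 6 (adjusted p = 0.00928). Nrip1, a corepressor of nuclear receptors, was called in the same comparisons (adjusted p = 0.0058 and 0.00696), at 10.20, 10.41 and 10.41. Comparison 6 holds no CIE Drinking array, and without mice 1 to 4 its differences stayed at 0.23 for Prkaa2 and 0.21 for Nrip1. With the spread then estimated from fewer arrays, their LIMMA adjusted p there moved past the threshold, to 0.0132 and 0.0103. The 77 genes of these lists gave 7 calls in Comparisons 1 to 6 of the PFC, 1.52% of 462 tests, beside 1.13% over all 18193 genes, and 2 calls without mice 1 to 4. For the NAC, HPC, BNST and CeA the list share was 0.216%, 0.433%, 0% and 0.216%, beside 0.179%, 0.308%, 0.149% and 0.114% of all genes.

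Ppargc1a, a coactivator of mitochondrial genes, rose in the HPC of CIE Drinking mice by 0.49 ± 0.11 (SE) in Comparison 1 (adjusted p = 0.00582) and 0.49 ± 0.12 in Comparison 4 (adjusted p = 0.00591). Without mice 1 to 4 the difference was 0.46 in both comparisons. With fewer arrays both calls were then lost, at LIMMA adjusted p of 0.0431 and 0.0317. Gjc3, 1 of 9 oligodendrocyte markers, was also higher in the HPC in these comparisons, by 0.36 and 0.49, and Cx3cr1 by 0.30 and 0.34. The medians were 0.13 and -0.06 for the oligodendrocyte and 0.03 and 0.06 for the microglia list, and their part in the Ppargc1a values was not tested. In the HPC none of the 18 probesets of the 10 genes was called in these comparisons. Genes of peroxisomal beta-oxidation (12 measured), ketone body metabolism (3) and the tricarboxylic acid cycle (15) gave 0 calls in any of the 6 comparisons and 5 regions.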

How the data were processed

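Gene expression was measured on Affymetrix GeneChip mouse arrays. The deposited values are log2 expression: the authors summarized probes by RMA and normalized each brain region on its own, with quantile normalization and ComBat correction for hybridization batch, so that within-region group differences are kept and levels of regions are not on 1 scale. The number of arrays, 8 to 12 in each group, limits the precision. Groups and mouse numbers were taken from the sample labels.

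From these values LIMMA (limma 3.58.1 in R 4.3.3, with statmod 1.5.0) was fitted to all probesets of a region, 1 mean a group, and p-values were adjusted by the Benjamini-Hochberg method over all probesets of a region and comparison. A probeset was called at 0.01 or less, two-sided. A 2-factor fit gave vapor, drinking and interaction, and a fit over all arrays compared the response of the PFC with that of other regions. Only the fit of 1 mean a group within a region was tried on simulated data, in Comparison 3 and with equal spread in all groups. Tables were handled in Python 3.11.15 (numpy 2.4.6, pandas 2.3.3, matplotlib 3.10.9).

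Of 45037 probesets, 34945 carried 1 gene symbol in the platform annotation, 932 several and 9160 none, and only the first were named. Each gene was described by its brightest probeset in that region, with other probesets where they differed. Of each pathway list, up to 4 called genes by smallest adjusted p were named, and the 5 genes with the highest Pearson r to Decr1 over 20 group means. Of the marker lists, only some of the called genes and comparisons were named. The 16 lists held 185 genes, 171 of them with a probeset. The genes and lists were chosen with earlier results of these data known. Alternatives were dim probesets left out, other variance models, array weights, repeated normalization, a threshold of 0.05, only the compared groups, probesets averaged per gene, left-out arrays and marker covariates, the last 2 chosen after seeing the data apart from leaving out single PFC arrays.

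The sample titles number the mice, so arrays with 1 number in different regions come from the same mouse. Of 402 such pairs of arrays, 102 had deviations from their group means that correlated over 0.1. The median correlation over the 402 pairs was 0.0253, with a range from -0.486 to 0.466. For pairs of different mice of a group in different regions the median was -0.00323. Mouse number was a block in the fit over regions as an alternative.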

Additional observations from a re-analysis of the deposited data

Results flagged for a closer look

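Groups of 4 to 10 arrays, which were the Air NonDrinking groups of the HPC, BNST and CeA, were checked for each of the 10 genes. Of these 30 readings, which share arrays, 2 had 1 array far from the others. Chance gives about 1 in 20, so that 2 is near what chance gives. Cpt1c (1435281_at) was lowest, at 11.34, in the HPC array of Air NonDrinking mouse 49. Cpt2 (1416772_at) was lowest, at 8.14, in the BNST array of Air NonDrinking mouse 55.

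The response of Hadhb by 1437172_x_at in Comparison 4 differed between the PFC and HPC by 0.42 ± 0.11 (SE), with a LIMMA adjusted p of 0.00609. The difference between CIE Drinking and Air NonDrinking was 0.25 in the PFC (adjusted p = 0.0242) and -0.18 in the HPC (adjusted p = 0.102). The other probesets of Hadhb gave 0.02 (adjusted p = 0.914) and -0.07 (adjusted p = 0.597) for the same difference between regions. This probeset may share probes with other transcripts.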

How the results depend on the processing

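Calls among the 18 probesets in Comparisons 1 to 6 depended on the setting, and the cause was not tested. In the PFC the 8 calls became 14 at an adjusted p of 0.05, 2 with only the 2 groups compared, 4 with probesets averaged per gene, 5 with the striatal covariate, 3 without CIE Drinking mice 1 to 4 and 2 without mice 1 to 6 and 20. These PFC counts include Decr1, whose values there chose the set, and nothing is read from its part. Apart from Decr1, only Hadhb in Comparison 1 was called with the 2 groups compared and with the striatal covariate. With probesets averaged per gene it was only Hadha in Comparison 6. The calls without mice 1 to 4 were of Hadhb and Hadha, and those without mice 1 to 6 and 20 of Hadhb. The NAC had 0 calls, and 1 at 0.05, with dim probesets left out, with array weights and with quantile normalization again. The HPC had 0, and 1 at 0.05 and with array weights, and the BNST 0, 1 at 0.05 and 2 with array weights. The CeA had 1, 2 at 0.05 and with array weights, and 0 with only the 2 groups compared or without mice 1 to 4.

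For vapor, drinking and interaction the PFC had 1 call, 6 at 0.05, 3 with dim probesets left out, 2 with quantile normalization again or the striatal covariate, and 0 with the mean of all probesets or without the low arrays in either way. The 1 call was of Decr1, as were those with the striatal covariate, and nothing is read from them. The HPC had 0, and 1 at 0.05 and with array weights, and the BNST 0, and 4 with array weights. Pathway list calls went from 7 to 23 at 0.05 in the PFC, and to 2 and 0 without mice 1 to 4 and without mice 1 to 6 and 20. In the NAC 1 became 5 at 0.05, 2 with the mean of all probesets and 0 without mice 1 to 4. In the HPC 2 became 5 at 0.05 and 0 without mice 1 to 4, in the BNST 0 became 6 at 0.05, and in the CeA 1 became 2 with the mean of all probesets and 0 without mice 1 to 4.

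Decr1 changed sign where arrays chosen by their own Decr1 values were left out. Without PFC mice 1 to 6 and 20, 1419367_at gave 0.0015 in Comparison 3, and 1449443_at 0.14 and 0.16 in Comparisons 1 and 4. Without mice 1 to 4, 1419367_at gave 0.017 in NAC Comparison 1, 0.0014, 0.031 and 0.0093 in HPC Comparisons 1, 3 and 4, and 0.014 and 0.037 in BNST Comparisons 1 and 3. The same omission gave 0.054 and 0.012 for 1449443_at in NAC Comparisons 1 and 3, and 0.0085 in HPC Comparison 1. With group medians, 1419367_at gave 0.014 in BNST Comparison 1. Leaving out each PFC array in turn, 1419367_at stayed between -0.53 and -0.44 in Comparison 1, -0.48 and -0.39 in Comparison 3 and -0.56 and -0.47 in Comparison 4. The dimmer probeset stayed between -0.27 and -0.19, -0.42 and -0.34, and -0.25 and -0.18. With mouse number as a replicate block (consensus correlation 0.0146) the fit over regions gave 1 call, as without the block.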
